A study of Mus musculus with 4 samples.

Results

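The 10 genes described here encode the main collagen chains of loose and dense connective tissue: *Col1a1*, *Col1a2*, *Col3a1*, *Col5a1*, *Col5a2*, *Col6a1*, *Col6a2*, *Col6a3*, *Col12a1* and *Col14a1*. They were chosen by symbol, and each was 1 of 32288 features counted in single-cell RNA-seq of mouse hindlimbs collected at E14.5. There were 4 libraries from 2 collections, and in each collection 1 library held tdT+ cells, sorted as descendants of *Gli1*-expressing cells, and 1 held tdT- cells. Every library joined *Pan-Cart-p21MOE* cells (p21 hereafter) and control cells that differed in sex, and each cell was assigned to its condition by its *Xist* and Y-linked transcripts, which kept 2768 cells. This loss was uneven: 2747 of the 3912 barcodes that passed the filters in the tdT- library of collection 2 gave no sex call. The tdT+ library of collection 2 lost 455 of 1483, and those of collection 1 lost 178 of 706 (tdT+) and 349 of 772 (tdT-). In collection 1 the p21 embryos were male and the controls female, and in collection 2 the p21 embryos were female and the controls male.

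All embryos carried a *Gli1* CreER allele, which marks *Gli1*-expressing cells on tamoxifen, a *Tigre* TRE-p21 allele and a Cre-dependent tdTomato reporter at *R26*. Only p21 embryos carried *Col2a1-rtTA* as well, so that doxycycline turned on the cell-cycle inhibitor p21 in the cartilage and in any other cell that uses this *Col2a1* driver. Doxycycline (1 mg/ml) was given from E12.5 and tamoxifen (120 µg/g) at E13.5 in both conditions. The 8 samples compared below (library by condition) came from only 4 embryo pools. By the methods text the p21 cells of collection 2 came from a single female embryo and each other pool from 2 embryos, while elsewhere the study describes every sample as a pool of several embryos. The p-values below therefore measure the spread between these samples, which are not 8 independent animals.

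As background, fibrillar collagens I, III and V are secreted as triple helices that assemble into banded fibrils, with collagen I giving tendon and bone their tensile strength, collagen III abundant in loose and fetal connective tissue, and collagen V setting where a fibril starts and how thick it grows. Collagen VI forms beaded microfilaments around cells. Collagens XII and XIV do not form fibrils of their own and sit on the surface of collagen I fibrils. Cartilage builds its fibrils from collagens II, IX and XI in their place, so most of these genes are used as markers of the tissue around the cartilage.

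The genes lie on 7 chromosomes, and 2 pairs are neighbours (GRCm38, GENCODE M21 annotation). *Col3a1* (chr1:45311538-45349706, plus strand, 51 exons in its longest transcript) and *Col5a2* (chr1:45374321-45503282, minus strand, 54 exons) end 24.61 kb from each other on opposite strands. *Col6a1* (chr10:76708792-76726168) and *Col6a2* (chr10:76595762-76623630) lie 85.16 kb apart, both on the minus strand. The others are *Col1a1* at chr11:94936224-94953042, *Col1a2* at chr6:4504814-4541544, *Col5a1* at chr2:27886425-28039514, *Col6a3* at chr1:90765923-90843971, *Col12a1* at chr9:79598991-79718831 and *Col14a1* at chr15:55307750-55520803.

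RefSeq start sites on GRCm38.p6 were found for 6 of the 10 genes. The 250 bases before the start are printed for 4 of them: *Col3a1* and *Col6a3* because they differed between the sorted fractions below, *Col6a2* as a partner chain of *Col6a3*, and *Col5a1* as the chain with the smallest difference between the fractions over all cells. Each runs 5′ to 3′ on the gene's strand, and capitals mark matches on either strand to CCAAT, to TATAAA, to the GC box GGGCGG, or to CAGATG, an E-box of the kind bound by basic helix-loop-helix factors such as Scx and Twist.
Col3a1 (chr1:45311288-45311537, plus strand): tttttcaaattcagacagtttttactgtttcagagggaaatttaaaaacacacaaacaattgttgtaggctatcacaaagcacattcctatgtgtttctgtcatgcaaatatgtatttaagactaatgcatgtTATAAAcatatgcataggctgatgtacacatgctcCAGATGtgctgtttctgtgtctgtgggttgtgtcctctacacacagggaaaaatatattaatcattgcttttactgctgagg
Col5a1 (chr2:27886175-27886424, plus strand): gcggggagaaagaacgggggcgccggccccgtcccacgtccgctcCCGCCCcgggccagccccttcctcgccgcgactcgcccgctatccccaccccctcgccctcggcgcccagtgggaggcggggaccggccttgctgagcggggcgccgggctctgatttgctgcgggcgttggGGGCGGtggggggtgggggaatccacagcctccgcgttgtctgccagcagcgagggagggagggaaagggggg
Col6a2 (chr10:76623631-76623880, minus strand): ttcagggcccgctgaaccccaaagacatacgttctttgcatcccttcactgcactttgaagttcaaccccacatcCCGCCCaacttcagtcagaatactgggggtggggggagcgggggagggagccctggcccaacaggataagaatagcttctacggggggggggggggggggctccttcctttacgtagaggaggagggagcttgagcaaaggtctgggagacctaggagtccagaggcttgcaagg
Col6a3 (chr1:90843972-90844221, minus strand): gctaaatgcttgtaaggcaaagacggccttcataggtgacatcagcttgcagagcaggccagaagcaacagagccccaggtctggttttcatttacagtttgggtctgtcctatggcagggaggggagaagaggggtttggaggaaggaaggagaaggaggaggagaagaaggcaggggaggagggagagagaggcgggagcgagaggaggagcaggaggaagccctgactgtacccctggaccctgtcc

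The 4 windows differed most in base composition, from 35.2% G and C in *Col3a1* through 57.2% in *Col6a3* and 59.2% in *Col6a2* to 76.4% in *Col5a1*, against a median of 52.4% over 32851 RefSeq promoters. *Col3a1* held TATAAA at 117 bases and CAGATG at 82 bases before the start, *Col5a1* held 2 GC boxes, the *Col6a2* window printed held 1 and *Col6a3* held none of the 4 motifs. *Col6a2* had another RefSeq start, whose window (chr10:76623405-76623654) is not printed. That window was 64.4% G and C and held GC boxes at 67, 15 and 11 bases before its start. Among all promoters 12.37% held TATAAA, 14.44% CAGATG, 32.74% the GC box and 33.85% CCAAT. These letter matches are not evidence that a factor binds there.

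Libraries held between 11945062 and 39435830 UMIs (unique molecular identifiers, each counting 1 captured transcript molecule), and the median kept cell had between 16417 and 27252. The 8 samples summed over all cells held 101 to 784 cells. The sort was matched by the reporter: tdTomato reached 18.0 ± 2.7 counts per 1000000 UMIs (CPM, SD, n = 4) in tdT+ and 1.58 ± 0.68 in tdT- samples. *WPRE*, a 3′ element used in transgenes and counted as a feature, was at 1367 ± 371 CPM in p21 and 312 ± 271 CPM in control chondrocytes, higher in 4 of 4 libraries (edgeR quasi-likelihood test, adjusted p = 0.0171). By the paper, reads of the tdTomato and p21 transgenes both fall mostly on this element. In connective tissue cells it was at 459.5 ± 79.0 CPM in tdT+ and 75.2 ± 35.1 CPM in tdT- samples. *Cdkn1a*, the gene for p21, was at 63.8 ± 5.21 CPM in p21 and 56.8 ± 30.4 CPM in control chondrocytes (same test, adjusted p = 0.821). Every pair of libraries shared 3 to 12 cell barcodes.

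Cells were grouped into 23 clusters without using the 10 collagens, and clusters were named only from marker genes that hold none of them. The named classes were tenocyte-like cells (233 cells in 2 clusters), perichondrium-like (174), interzone-like (155), osteoprogenitor-like (56), fibroblast-like (228), limb mesenchyme-like (130) and chondrocyte-like cells (689 in 4 clusters), a cluster of hypertrophic chondrocyte-like cells (95), and a mixed connective cluster (190) that scored highest for perichondrium markers but had the osteogenic genes *Runx2* and *Alpl*, and no perichondrium marker, among its 10 leading genes. Chondrocyte-like cells had all 11 of their markers above the other classes, tenocyte-like cells 7 of 8 and osteoprogenitor-like cells 9 of 10, whereas limb mesenchyme-like cells had only 3 of 7, with 1 at 0. Perichondrium-like cells had 6 of 8, interzone-like cells 6 of 8 and fibroblast-like cells 7 of 10. Of the 56 osteoprogenitor-like cells, 38 came from the tdT+ library of collection 2 and 0 from the tdT- library of collection 1. A further 787 cells in 9 clusters stayed unnamed. Levels by class are given in CPM over at least 5 cells of a sample. As 1 UMI is 1 molecule caught at its 3′ end, CPM can be set side by side between genes without a correction for length, apart from differences in capture.

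In droplet data, free RNA adds UMIs to cells that do not express a gene. As a guide to its level, class levels are set beside those of the barcodes with fewer than 1000 UMIs (low-UMI barcodes), which were not tested for being empty droplets or shallow cells. They held *Col1a1* at 1535 and 1222 CPM in the tdT+ libraries of collections 1 and 2, and at 332.3 and 795.8 CPM in the tdT- libraries.

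*Col1a1*, the more abundant chain of collagen I, had its highest medians in bone-forming and perichondrial cells. It had a median of 4679 CPM in osteoprogenitor-like cells (3894 to 5147, 4 samples), 4053 in the mixed connective cluster (2351 to 5714, 8 samples) and 3783 in perichondrium-like cells (3073 to 4734). It was lower in tenocyte-like cells, at 2809 (1487 to 3615), in fibroblast-like cells, at 1895 (1432 to 3007), and in limb mesenchyme-like cells, at 1436 (873.9 to 2077, 7 samples). Interzone-like cells, which form the future joint, had only 599.1 (398.2 to 941.6). The ranges of neighbours in the order of these classes overlapped at every step. Chondrocyte-like cells, at 439.9 (351.2 to 590.7), had 0.46 times the level of the low-UMI barcodes of their own library in the median sample, and were above it in 2 of 8. Interzone-like cells had 0.62 times that level and were above it in 3 of 8, so neither level can be told apart from free RNA.

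*Col1a2*, the second chain of collagen I, followed *Col1a1* across classes but not in a fixed ratio. Its median was 2776 CPM in the mixed connective cluster, 2458 in perichondrium-like, 1945 in tenocyte-like and 1925 in osteoprogenitor-like cells. Between 1.36 and 1.58 *Col1a1* UMIs were counted for each *Col1a2* UMI in the median sample of 7 of the 9 classes. Osteoprogenitor-like cells had 2.417 (2.17 to 2.906) and interzone-like cells 2.579 (1.807 to 3.719), although in interzone-like cells *Col1a2* was below the low-UMI barcodes in 8 of 8 samples.

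*Col3a1* had a flat profile over 4 connective classes and was lower in the others. Its median was 2167 CPM in fibroblast-like cells (1469 to 2427), 2084 in the mixed connective cluster, 1968 in tenocyte-like and 1909 in perichondrium-like cells (1483 to 2616). The next class, osteoprogenitor-like cells, reached 986 (769.2 to 1039), and no sample of it overlapped the 4 classes above. Limb mesenchyme-like cells, at 969.9 (487.9 to 1307), and interzone-like cells, at 812.7 (476.7 to 1083), overlapped it. *Col3a1* exceeded *Col1a1* in the median fibroblast-like and interzone-like sample, with 0.93 and 0.81 *Col1a1* UMIs for each *Col3a1* UMI, whereas osteoprogenitor-like cells had 4.591 (4.005 to 6.691), above every sample of every other class. Interzone-like *Col3a1* was only 1.216 times the low-UMI barcodes in the median sample and above them in 4 of 8. Osteoprogenitor-like *Col3a1* was 1.208 times these barcodes and above them in 3 of 4. The interzone-like ratio therefore rests on levels near those of these barcodes, and so does the *Col3a1* part of the osteoprogenitor-like ratio.

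**Figure D1:**
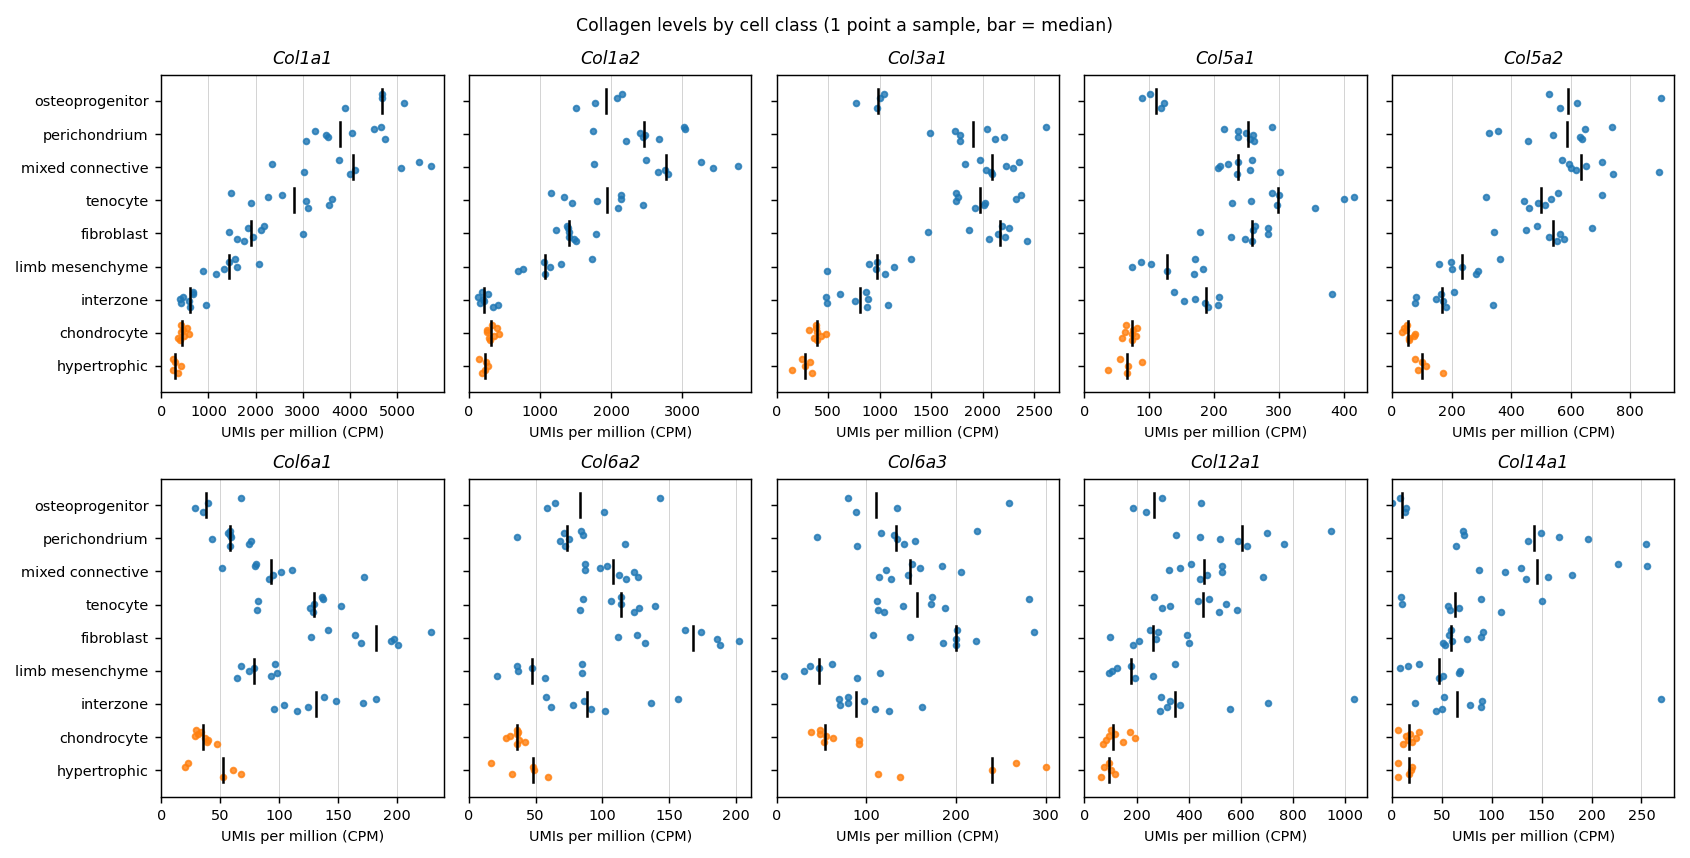
Level of each collagen gene (x axis, CPM, linear from 0, a separate scale in each panel) in 9 cell classes (y axis), with 1 point for each sample of at least 5 cells and a bar at the median. Connective tissue classes are blue and chondrocyte classes orange; *Col1a1* falls from 4679 in osteoprogenitor-like to 439.9 CPM in chondrocyte-like cells, while *Col6a3* is highest in the hypertrophic cluster at 240.2.

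The chains of collagen V separated more than those of collagen I. *Col5a1* was highest in tenocyte-like cells, at 298.5 CPM (227 to 416.3), with 259.2 in fibroblast-like, 251.7 in perichondrium-like and 188.2 in interzone-like cells, and only 110.2 (89.53 to 122.3) in osteoprogenitor-like cells. *Col5a2* was at 592.1 CPM (527.1 to 905.3) in those same osteoprogenitor-like cells, near the 635.5 of the mixed connective cluster and the 586.6 of perichondrium-like cells. For each *Col5a1* UMI there were 5.131 *Col5a2* UMIs in osteoprogenitor-like cells (4.741 to 10.11), 1.734 in tenocyte-like cells (0.7566 to 2.347) and 0.9088 in interzone-like cells (0.3962 to 1.644). The osteoprogenitor-like range overlapped no other class. In chondrocyte-like cells *Col5a2* was at 53.5 CPM, below the low-UMI barcodes in 8 of 8 samples.

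Collagen VI had its first 2 chains highest in fibroblast-like cells. *Col6a1* reached 181.8 CPM there (126.7 to 229.1), 131 in interzone-like (95.98 to 182.5), 129.3 in tenocyte-like and 58.47 in perichondrium-like cells (43.17 to 75.79). *Col6a2* reached 168.2 in fibroblast-like, 113.8 in tenocyte-like and 88.69 in interzone-like cells. Interzone-like cells, which had the lowest median of *Col1a2*, were second for *Col6a1*, although their range overlapped that of tenocyte-like cells. In chondrocyte-like cells the chains were at 35.01 and 36.07 CPM, 0.674 and 0.945 times the low-UMI barcodes in the median sample.

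*Col6a3*, the long chain that completes the collagen VI molecule, had its highest median in another class, with wide overlap. It was at 240.2 CPM (112.6 to 300.1, 5 samples) in hypertrophic chondrocyte-like cells, 199.9 (106.9 to 286.8) in fibroblast-like, 156.5 (112.3 to 281.7) in tenocyte-like and 53.71 (38.13 to 91.73) in the other chondrocyte-like cells. Hypertrophic chondrocyte-like cells had 4.957 *Col6a3* UMIs for each *Col6a2* UMI (2.311 to 16), against a median between 1 and 1.577 in the 8 other classes drawn. The ranges overlapped, up to 4 in osteoprogenitor-like and 3.306 in tenocyte-like cells, and the values of 16 and 6.286 rested on 3 and 7 *Col6a2* UMIs. Pooled over samples, the cluster held *Col6a3* at 181.3 CPM in p21 and 148.4 CPM in control cells. Its mean over samples was 211.3 ± 82.2 CPM (SD, n = 5), against 193.8 ± 52.35 CPM (n = 8) in fibroblast-like cells. Hypertrophic chondrocyte-like *Col6a3* was 4.782 times that of the low-UMI barcodes of the same library in the median sample, and above it in 5 of 5. The same cluster also held genes from the marker lists of other classes, which hypertrophic cells may express themselves. Of 7 endothelial markers, 6 were found in at least 10% of its cells, summing to 480.5 CPM against 163.9 in the other chondrocytes. Genes of the osteoprogenitor list summed to 1248 CPM against 122. Their part in the *Col6a3* level was not tested.

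**Figure D2:**
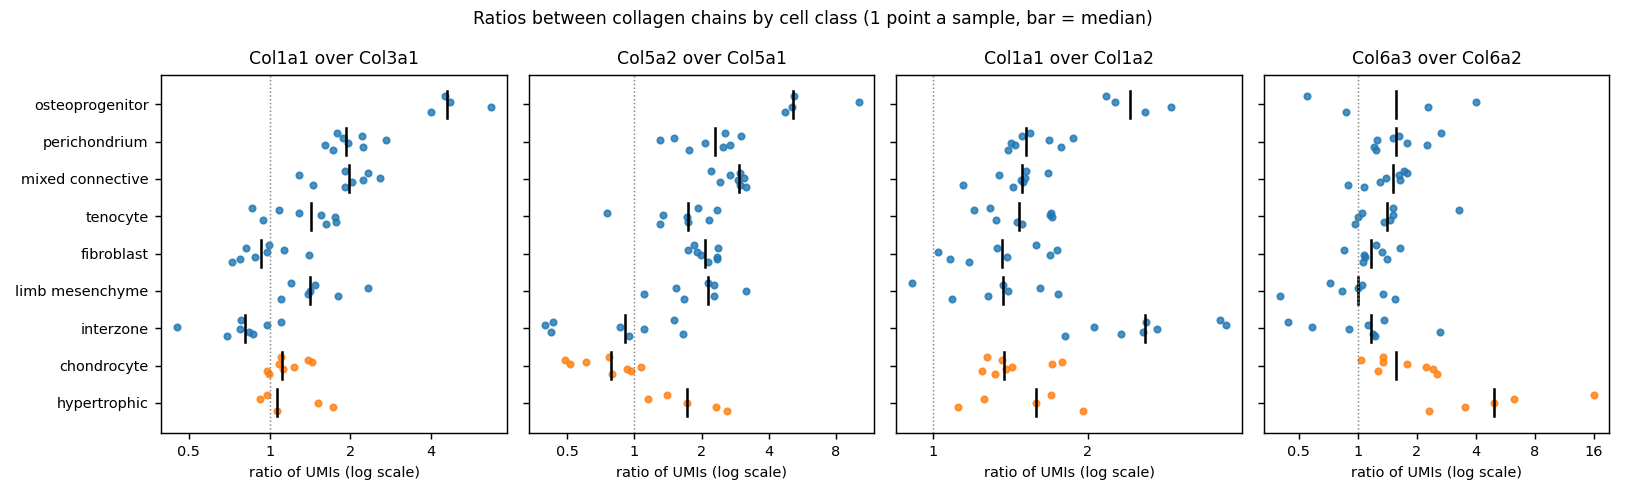
Ratio of UMIs between pairs of collagen chains (x axis, log scale, dotted line at 1) in 9 cell classes (y axis), 1 point for each sample and a bar at the median. Osteoprogenitor-like cells stand apart for *Col1a1* over *Col3a1* (median 4.591) and *Col5a2* over *Col5a1* (5.131), while the hypertrophic cluster has the highest median of *Col6a3* over *Col6a2* (4.957) with a range that overlaps other classes. Osteoprogenitor-like *Col3a1* was near the level of low-UMI barcodes, and 38 of these 56 cells came from the tdT+ library of collection 2.

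The fibril-associated collagens were high around the cartilage. *Col12a1* had a median of 605.9 CPM in perichondrium-like cells (349.6 to 946.6), 458 in the mixed connective cluster, 456 in tenocyte-like cells, 347.7 in interzone-like cells (290.6 to 1034) and 267.5 in osteoprogenitor-like cells. *Col14a1* had 144.9 in the mixed connective cluster (87.37 to 255.1), 142.6 in perichondrium-like cells (64.4 to 254.7), 65.06 in interzone-like and 62.73 in tenocyte-like cells, and 10.36 (0 to 14.11) in osteoprogenitor-like cells, below the low-UMI barcodes in all 4 samples. *Col12a1* in interzone-like cells was at 5.688 times the level of the low-UMI barcodes, and above them in 8 of 8 samples.

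The tenocyte clusters differed from each other as well, described with no test. The cluster led by *Thbs4*, *Tnmd* and *Kera*, markers of maturing tendon, had medians of 3462 CPM for *Col1a1* (2123 to 4816, 6 samples), 344.7 for *Col5a1*, 570.2 for *Col12a1* and 91.24 for *Col6a1*. The cluster led by *Chodl* and *Ebf2* had 2359 (1160 to 2445, 7 samples), 242, 272.4 and 147. *Col3a1* was at 1943 and 2140 CPM. The *Chodl* cluster had a mean log2 fold of tenocyte markers of 0.5308, near the 0.5 needed for its name, against 2.559 in the *Thbs4* cluster. Of the 124 cells of the *Thbs4* cluster, 88 came from the tdT- library of collection 2.

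Across 50 class-by-sample values of at least 10 cells, the collagens fell into tight and loose pairs, described with no test since the values share libraries and depth. Pearson's r of log2 CPM was 0.96 for *Col1a1* with *Col1a2*, 0.92 for the neighbours *Col3a1* and *Col5a2*, 0.91 for *Col3a1* with *Col5a1* and 0.85 for *Col6a1* with *Col6a2*. At the other end were *Col6a1* with *Col1a2*, at 0.26, and *Col6a3* with *Col12a1*, at 0.28. The genes most like the mean of the 10 were *Lpar1* (r = 0.94), *Kctd12* (0.94), *Mfap2* (0.93), *Igfbp4* (0.93) and *Ednra* (0.92) of 14925 genes compared. For single chains the closest genes were *Ptprd* for *Col1a1* (0.92), *Thbs2* for *Col1a2* (0.91), *H2afy2* for *Col3a1* (0.94), *Sema3a* for *Col5a1* (0.92), *Kctd12* for *Col5a2* (0.93), *Kif5c* for *Col6a1* (0.83), *Tle5* for *Col6a2* (0.88), *Grb14* for *Col6a3* (0.74), *Fbn2* for *Col12a1* (0.84) and *Cacna1g* for *Col14a1* (0.83).

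The sort by tdT asks where the descendants of *Gli1*-expressing cells differ from the other cells. Over all kept cells, 3 of the 10 collagens were higher in tdT+ samples by edgeR's quasi-likelihood test at an adjusted p under 0.05, against 1.3% of all 14538 genes tested, and none was lower, against 0.942%. All 10 had a log2 difference above 0, with a median of 0.403 against -0.009 over all genes. *Col3a1* had 1361, 1413, 1338 and 1159 CPM in the 4 tdT+ samples and 825, 1036, 974 and 1091 in the 4 tdT- samples. These groups did not overlap, as for 5.74% of genes in this direction, and the log2 difference was 0.43 ± 0.093 (SE, adjusted p = 0.0440). *Col14a1* had 60.7, 90.4, 77.3 and 54.9 CPM against 43.3, 40.6, 49.2 and 38.4, again without overlap, a difference of 0.73 ± 0.157 (adjusted p = 0.0436). *Col6a3* had 111, 125, 123 and 137 CPM against 86.8, 91.9, 88.2 and 112, so that 1 tdT- sample reached into the tdT+ range, with a difference of 0.38 ± 0.078 (adjusted p = 0.0379). Low-UMI barcodes held *Col3a1* at 918.3 and 778 CPM in the tdT+ libraries, and at 251.6 and 605 in the tdT- libraries. They held *Col14a1* at 30.86 and 25.11 against 8.677 and 22.56, and *Col6a3* at 47.86 and 50.22 against 24.29 and 43.3. The part of free RNA in these 3 differences was not tested.

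*Col1a1* differed by as much, with 2161 ± 403 CPM in tdT+ and 1422 ± 261 CPM in tdT- samples (SD, n = 4), a log2 difference of 0.61 ± 0.154, higher in 4 of 4 embryo pools but with an adjusted p of 0.0698 by edgeR. *Col5a2* did not overlap between the fractions either (338.8 ± 46.4 against 224.9 ± 44.4 CPM) and differed by 0.59 (adjusted p = 0.0649) and *Col1a2* by 0.58 (adjusted p = 0.0953). *Col5a1*, at 162.9 ± 8.72 and 150.8 ± 8.42 CPM, was the closest to equal, with a 95% interval of the log2 difference from -0.02 to 0.24. The tdT+ and tdT- cells of an embryo pool come from the same embryos, and their deviations correlated at 0.0718 to 0.222 over genes. With the pool as a block, 6 collagens passed: *Col1a1*, *Col1a2*, *Col3a1*, *Col5a2*, *Col6a3* and *Col14a1*. The count is fragile in the other direction, since it was 0 when any of S1 p21, S1 control, S2 control, S3 control or S4 control was left out (S1 and S2 are the tdT+ and tdT- libraries of collection 1, S3 and S4 those of collection 2).

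**Figure D3:**
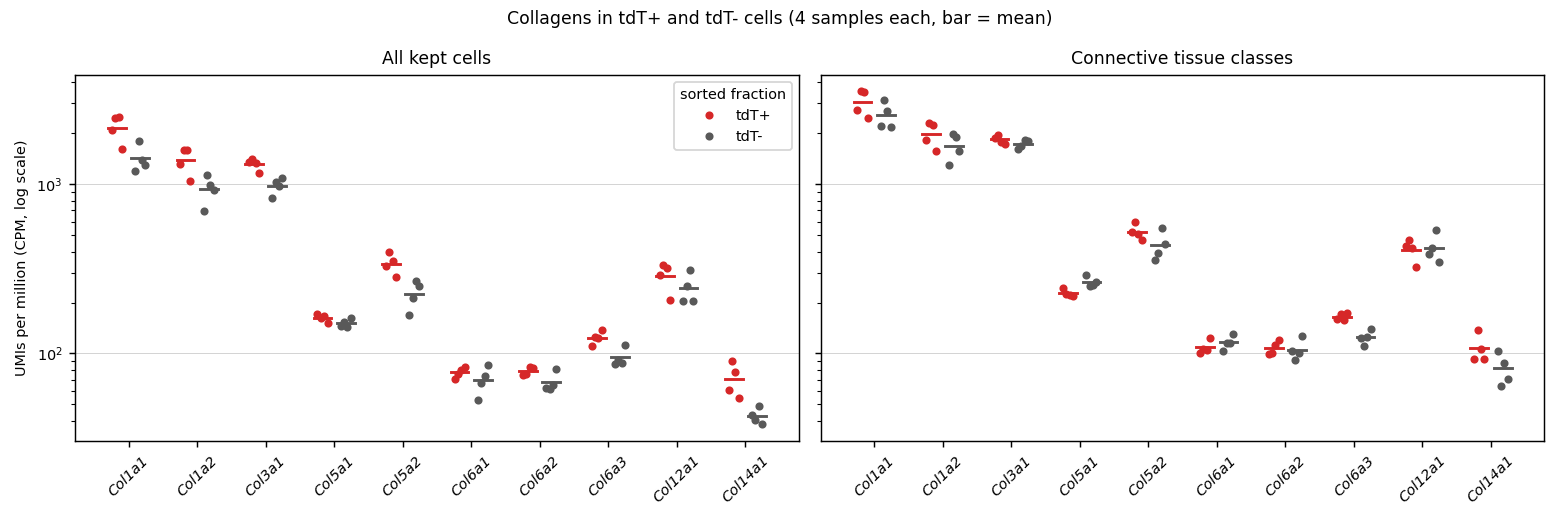
CPM on a log scale (y axis) of the 10 collagen genes (x axis) in tdT+ (red) and tdT- (grey) samples, over all kept cells (left) and over connective tissue classes only (right), 4 points each with a bar at the mean. *Col3a1*, *Col5a2* and *Col14a1* are higher without overlap in all cells, as are 5.74% of all genes, and in connective tissue cells *Col6a3* is higher (165.3 against 124.8 CPM on average; 4.15% of genes) and *Col5a1* lower (3.91%) without overlap.

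Sums over all cells cannot tell more collagen per cell from more cells of a collagen-rich class, and the classes moved with the sort. Chondrocytes of both kinds made up 19.23% to 24.13% of tdT+ samples and 30.69% to 42.52% of tdT- samples, and connective tissue classes 40.72% to 58.57% and 23.17% to 46.53%. Perichondrium-like, mixed connective and osteoprogenitor-like cells, which were highest for *Col1a1*, made up 39.26% to 56.06% of the connective tissue cells in tdT+ samples and 17.18% to 34.04% in tdT- samples. Summed erythroid markers were at 4.028 to 6.076 CPM in tdT+ and 19.6 to 69.61 CPM in tdT- samples, and immune markers at 4.557 to 5.643 and 12.77 to 150.3 CPM, and their part in the collagen differences was not tested.

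Within the 1166 connective tissue cells none of the 10 collagens passed, against 1.19% of 12894 genes called in either direction. *Col6a3* came nearest, with 159, 171, 158 and 173 CPM in tdT+ and 123, 110, 126 and 139 CPM in tdT- samples. The groups did not overlap, as for 4.15% of genes in this direction, and the log2 difference of 0.39 ± 0.086 was as large as over all cells, with an adjusted p of 0.0583 by edgeR and 0.0124 by DESeq2. Markers of other cells also separated in these connective tissue cells, with erythroid markers summing to 4.78 to 5.472 CPM in tdT+ and 15.82 to 24.73 CPM in tdT- samples, immune markers to 3.336 to 5.007 and 5.744 to 10.55, and Schwann cell markers to 4.068 to 5.234 and 7.031 to 43.85. Low-UMI barcodes also held more *Col6a3* in the tdT+ libraries. The part of these other cells and of free RNA in the difference was not tested. *Col5a1* went the other way, at 227.1 ± 11.5 against 264.4 ± 18.1 CPM, lower in tdT+ cells of 4 of 4 pools without overlap (as for 3.91% of genes), but with an adjusted p of 0.249 for a log2 difference of -0.22 ± 0.076. *Col3a1* differed by 0.09 (95% interval -0.05 to 0.23), *Col1a1* by 0.26 (-0.02 to 0.54) and *Col12a1* by -0.03 (-0.29 to 0.23). *Col14a1* differed by 0.41 (adjusted p = 0.330), and by 0.2231 to 0.5199 when 1 sample was left out, but by -0.65 in tenocyte-like cells alone (adjusted p = 0.702).

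Within the 784 chondrocytes none of the 10 passed either, against 0.0181% of 11052 genes. *Col1a2* was at 350.5 ± 22.8 CPM in tdT+ and 265.9 ± 17.2 CPM in tdT- chondrocytes, without overlap (as for 1.6% of genes in this direction) and with a log2 difference of 0.39 ± 0.088, at an adjusted p of 0.474. Low-UMI barcodes held 717 and 600.6 CPM of *Col1a2* in the tdT+ libraries and 195.2 and 428.1 in the tdT- libraries, so these barcodes were also higher in the tdT+ libraries, and the part of free RNA in this difference was not tested.

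Genes that act with these collagens were counted from lists chosen by function, to be read against the 1.3% of all genes that were higher and the 0.942% that were lower over all cells. There, 3 of 23 fibril partners were higher in tdT+ samples, namely *Thbs2*, *Fbn1* and the small leucine-rich proteoglycan *Aspn*, and the cartilage matrix gene *Comp* was lower (61.7 ± 18.3 against 175 ± 90.4 CPM). Of 36 regulators, *Runx2* (399 ± 82.9 against 187 ± 27.3 CPM, adjusted p = 0.00935), *Twist2*, *Prrx1* and *Prrx2*, transcription factors of the limb mesenchyme and its osteogenic derivatives, were higher, and the matricellular gene *Ccn2* was lower. Among 27 other collagens, *Col23a1* and *Col8a2* were higher, and 6 were lower: *Col2a1*, *Col9a2*, *Col9a3*, *Col11a1*, *Col11a2* and *Col10a1*, all of them known from cartilage. Of 36 genes for collagen synthesis and processing only *Loxl4* passed, lower in tdT+ samples, and none of 13 collagen receptors did. Within connective tissue cells, where 1.19% of all genes were called in either direction, 1 of 22 fibril partners was higher (*Thbs2*, 105 ± 14.4 against 63.0 ± 7.42 CPM). Of 36 regulators *Runx2* and *Twist2* were higher and the tendon factor *Mkx*, *Sox9* and *Egr1* lower, and of 25 other collagens *Col2a1*, *Col9a2* and *Col9a3* were lower.

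The comparison of p21 with control asks whether p21 expression in cartilage altered these genes in the cartilage or around it. None of the 10 collagens passed over all cells (0.0344% of 14538 genes called), in chondrocytes (0.561% of 11052) or in connective tissue cells (0 of 12894, where 317 genes were higher and 228 lower at an unadjusted p under 0.05 and DESeq2 called 1). In connective tissue cells the 95% interval of the log2 difference was -0.26 to 0.31 for *Col1a1*, -0.13 to 0.16 for *Col3a1*, -0.22 to 0.08 for *Col5a1* and -0.09 to 0.25 for *Col6a3*. *Col6a1* was higher in p21 cells in 4 of 4 libraries, at 119.4 ± 10.5 against 106.1 ± 7.003 CPM, a difference of 0.18 ± 0.087 with an adjusted p of 1.00 (unadjusted p from edgeR's quasi-likelihood test 0.0702).

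In chondrocytes 2 collagens had the largest differences, in opposite directions. *Col6a3* had 63.5, 102, 107 and 98.7 CPM in the p21 cells of S1 to S4 and 49.4, 68.0, 65.0 and 65.8 CPM in their controls. It was higher in p21 cells in 4 of 4 libraries, while the p21 value of S1 lay within the control range. The log2 difference was 0.59 ± 0.159 (95% interval 0.28 to 0.90), with an adjusted p of 0.131 by edgeR, and 0.37 (adjusted p = 0.500) in cells with at least 3000 UMIs. Those cells were clustered and named anew, which changed the set of chondrocytes, from 48 to 79 in S1 control and from 100 to 134 in S2 control. Chondrocyte-like *Col6a3* was above the low-UMI barcodes of its library in 7 of 8 samples, at 1.531 times its level in the median sample. In 31 immune-like cells of a finer clustering, pooled over libraries, *Col6a3* was at 103 CPM. The median chondrocyte-like sample had 0.5215 times that level, and the part of free RNA in the p21 difference was not tested. *Col12a1* had 151, 93.0, 84.9 and 70.5 CPM in p21 and 106, 119, 183 and 148 CPM in control chondrocytes. It was lower in p21 cells in 3 libraries and higher in S1, with a difference of -0.54 ± 0.210 (adjusted p = 0.346).

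**Figure D4:**
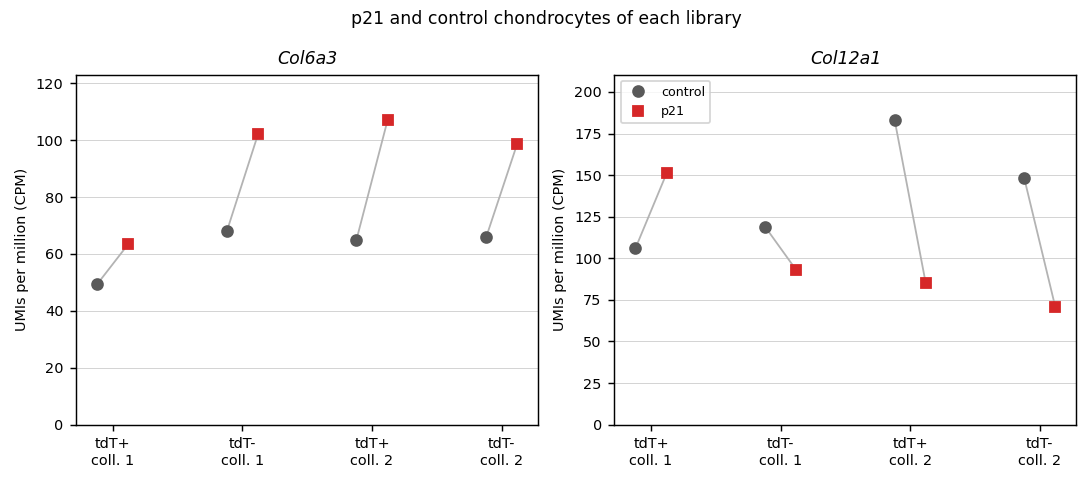
*Col6a3* and *Col12a1* in chondrocytes, in CPM (y axis, from 0), for the control (grey circles) and p21 cells (red squares) of each library (x axis), joined by a line. *Col6a3* is higher in the p21 cells of all 4 libraries, and *Col12a1* is lower in 3 of 4.

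By cluster, described with no test, these differences were not spread evenly. *Col6a3* was at 114.5 CPM in p21 and 41.21 CPM in control cells of the cluster led by *C1qtnf3*, *Epyc* and *Matn3* (103 and 71 cells, pooled over samples, medians of 4 samples 91.85 and 44.17, with ranges that overlapped). The other 9 collagens were also higher in p21 cells of this cluster when pooled, among them *Col1a1* at 289.8 against 172.5 CPM, *Col3a1* at 202.4 against 130.1 and *Col5a1* at 51.72 against 31.06. Of these 9, only *Col5a1* had sample ranges that did not overlap. The share of all genes without overlap in this cluster was not counted. Low-UMI barcodes held *Col1a1* at 332.3 to 1535 CPM and *Col3a1* at 251.6 to 918.3, above the pooled values here, and *Col5a1* at 29.5 to 66.65. The part of free RNA in these differences was not tested. The medians of *Col1a2* were close (189.7 and 187.6), and *Col14a1* rested on 35 and 17 UMIs. Of the 174 cells of this cluster, 92 came from the tdT- library of collection 2. *Col6a3* was at 61.62 and 60.16 CPM in the cluster led by *Hes5* and the heat shock genes *Hspa1a* and *Hspa1b*, and at 69.7 and 63.22 CPM in the largest cluster. In the hypertrophic cluster it was at 181.3 and 148.4 CPM. *Col12a1* was lower in p21 cells of the *Hes5* cluster (93.74 against 182.2 CPM), of the largest cluster (108.1 against 241.3) and of the hypertrophic cluster (75.78 against 113.5), and higher in those of the *C1qtnf3* cluster (61.55 against 46.44). With hypertrophic cells left out, the *Col6a3* difference was 0.43 (adjusted p = 0.607) and that of *Col12a1* -0.53 (adjusted p = 0.470). Hypertrophic cells made up 4.444%, 19.35%, 7.5% and 15.75% of p21 chondrocytes in S1 to S4 and 0%, 13%, 3.636% and 21.98% of control chondrocytes, and endothelial markers summed to at least 173.7 CPM in every p21 sample and to 102.6 to 239.6 CPM in control chondrocytes, and their part in the difference was not tested.

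No collagen passed the test of a p21 response that differs between cell groups. The difference of responses, chondrocytes minus connective tissue cells, was 0.47 ± 0.256 for *Col6a3* (adjusted p = 0.772) and -0.31 ± 0.186 for *Col12a1* (adjusted p = 0.813). The response of tdT+ minus that of tdT- connective tissue cells was 0.69 ± 0.271 for *Col14a1* (adjusted p = 1.00), the largest of the 10 there. It ranged from 0.3916 to 0.947 when 1 sample was left out, and from 0.2269 to 1.606 under other settings. By edgeR 0 genes were called in any of these 3 tests, with 400 higher and 511 lower at an unadjusted p under 0.05 in the first, and other settings called up to 291 genes in the first, 32 in chondrocytes and 97 in connective tissue cells.

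Among the genes that act with collagens, 2 fell in p21 chondrocytes. *Ccn2*, which codes for connective tissue growth factor, was at 51.4 ± 12.8 CPM in p21 and 149 ± 35.7 CPM in control chondrocytes, a log2 difference of -1.55 ± 0.128 (adjusted p = 0.000327). *Tnc*, the matrix glycoprotein tenascin C, was at 103 ± 11.0 against 173 ± 23.9 CPM, a difference of -0.76 ± 0.115 (adjusted p = 0.0161). They were 1 of 36 regulators and 1 of 21 fibril partners tested. None of 33 genes of collagen synthesis and processing, 12 receptors or 24 other collagens passed.

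Collagen I went opposite ways in the collections, whose p21 embryos differed in sex. In connective tissue cells *Col1a1* had 3543 CPM in p21 and 2750 in control cells of S1, and 3128 against 2207 in S2. In collection 2 it had 2468 in p21 and 3481 in control cells of S3, and 2174 against 2722 in S4. Male cells were thus the higher ones in every library, at 3219 ± 378 against 2400 ± 268 CPM. *Col1a2* had 2297 against 1824, 1983 against 1297, 1580 against 2227 and 1571 against 1909 CPM in p21 and control cells of S1 to S4, and its male and female values did not overlap, as for 1.64% of genes in this direction.

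A fit of male against female, added after these values were seen, gave a log2 difference of 0.42 ± 0.078 for *Col1a1* (adjusted p = 0.121) and 0.42 ± 0.085 for *Col1a2* (adjusted p = 0.155) in connective tissue cells, and 0.60 ± 0.125 for *Col12a1* in chondrocytes (adjusted p = 0.134). DESeq2 gave 0.00184 and 0.00711 for the first 2 values. None of the 10 passed by edgeR, against 0.0853% of genes in connective tissue cells, 0.0995% in chondrocytes and 0.0619% over all cells. *Col3a1* differed by 0.04 (95% interval -0.11 to 0.19) and *Col6a3* by -0.07 (-0.25 to 0.10) in connective tissue cells. In this design the sex of the cells, the embryo pool and a p21 response that differs between collections cannot be told apart. Perichondrium-like, mixed connective and osteoprogenitor-like cells moved the same way: they made up 56.06%, 34.04%, 53.05% and 21.28% of male and 44.44%, 31.67%, 39.26% and 17.18% of female connective tissue cells in S1 to S4.

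**Figure D5:**
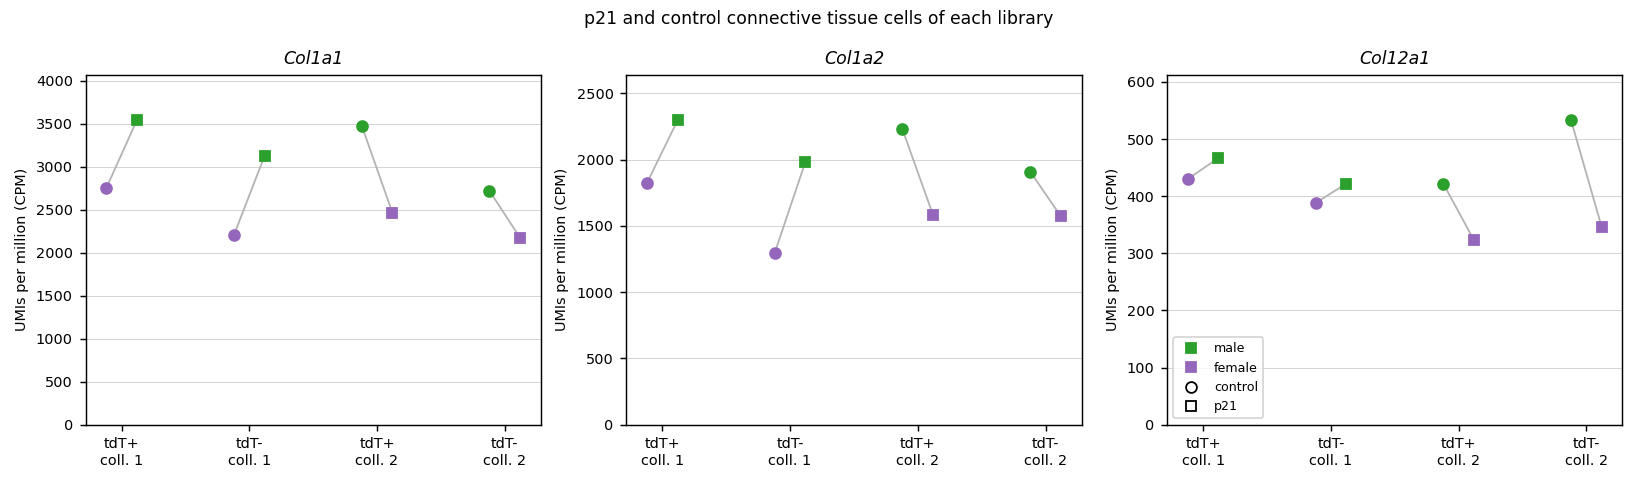
*Col1a1*, *Col1a2* and *Col12a1* in connective tissue cells, in CPM (y axis, from 0), for control (circles) and p21 cells (squares) of each library (x axis), joined by a line and coloured by sex. The male value lies above the female one in each library for all 3 genes, whichever of them is the p21 sample.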

How the data were processed

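Single-cell libraries (10x 3′ v3.1) were mapped by the authors with Cell Ranger 7.2.0 to GRCm38 with tdTomato, CreERT2 and WPRE sequences added, and the deposited values are raw UMI counts. Barcodes with at least 1000 UMIs, 500 genes and at most 10% mitochondrial UMIs were kept. Condition followed from sex (at least 2 UMIs, 80% from *Xist* or from *Ddx3y*, *Eif2s3y*, *Kdm5d* and *Uty*), and 3729 barcodes with no call, 277 with both sexes and the 5% highest Scrublet scores were left out. Of the barcodes with no call, 2747 were from the tdT- library of collection 2. Cells were clustered with scanpy 1.11.5 (2000 variable genes, 30 components, Leiden resolution 1) without the 10 collagens and 924 cell-cycle genes, and the rule for naming clusters was set after they were seen. Counts were summed per library and condition and tested with edgeR 4.0.16 (TMM, filterByExpr, quasi-likelihood, fraction or condition as covariate, Benjamini-Hochberg over all genes); DESeq2 1.42.0 and limma 3.58.1 were alternatives. CPM is counts per 1000000 UMIs. The script was tested on simulated data. Connective tissue cells are the 7 named connective classes. Named genes were the 10 members, the genes with the most similar profile and list genes past the threshold. Members and lists were chosen with earlier results of these data known.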

Additional observations from a re-analysis of the deposited data

Results flagged for a closer look

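The difference of p21 from control cells, as a mean log2 ratio over the 2 libraries of a collection, had one sign in both libraries of collection 1 and the other sign in both libraries of collection 2. Over all cells this held for *Col1a1* (0.4073 in collection 1 and -0.3611 in collection 2), *Col1a2* (0.4817 and -0.3681), *Col5a2* (0.3066 and -0.2007) and *Col12a1* (0.2617 and -0.6215). In connective tissue cells it held for *Col1a1* (0.4345 and -0.4103), *Col1a2* (0.4726 and -0.3881), *Col3a1* (0.05565 and -0.0273), *Col5a2* (0.1579 and -0.2163) and *Col12a1* (0.1211 and -0.5044), and in chondrocytes for *Col5a2*, with the opposite order (-0.196 and 0.1557). The male against female fit tests this difference, but it was added after the pattern was seen in these genes and is no independent evidence. None of them passed it by edgeR, while DESeq2 called *Col1a1*, *Col1a2* and *Col12a1* over all cells and *Col1a1* and *Col1a2* in connective tissue cells.

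*Col6a3* in control chondrocytes of S1 stood apart from its group, at 49.4 CPM against 65.0 to 68.03 CPM in the other control samples. Chance flags about 1 group in 20, and without this sample the p21 difference was 0.52 (edgeR's quasi-likelihood test, adjusted p = 0.331).

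Barcodes under 1000 UMIs, which entered no test between groups and served only as a guide to free RNA, held *Col1a1* at 1535 CPM in S1 (3432 UMIs), 332.3 in S2 (383 UMIs), 1222 in S3 (3700 UMIs) and 795.8 in S4 (1305 UMIs).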

How the results depend on the processing

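The count of collagens past an adjusted p of 0.05 was 0 under every setting run for p21 against control over all cells, in connective tissue cells and in the 3 tests of differing responses, and for tdT in chondrocytes. In p21 chondrocytes it was 2 with no filter on low counts (*Col6a3* and *Col12a1*) and 0 otherwise. For tdT over all cells it was 6 with DESeq2, 6 with the replicate block by embryo pool, 6 with sex as a covariate (added later), 7 with no filter, 1 with whole libraries (2 against 2) and between 0 and 6 when a sample was left out, 1 without S2 p21 or S4 p21 and 6 without S3 p21. For tdT in connective tissue cells it was 1 with DESeq2, 1 with Scrublet-flagged cells kept, 1 at resolution 1.5 and 5 with no filter. For male against female, with DESeq2 and with no filter alike, it was 3 over all cells, 1 in chondrocytes and 2 in connective tissue cells, and 1 in chondrocytes at resolution 1.5. *Col14a1* reversed in tenocyte-like cells alone (-0.65, from 0.41). The replicate block changed no other count of collagens.

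Genes called over the whole transcriptome ranged from 0 to 453 for p21 over all cells (5 in the fit reported), 10 to 483 in chondrocytes (62) and 0 to 188 in connective tissue cells (0), and for tdT from 63 to 1787 (326), 1 to 186 (2) and 79 to 893 (154). Of the collagens, 7 had a lower median in chondrocyte-like cells than in every connective class, and 7 to 9 under other clusterings and filters. Samples held 31 to 254 chondrocytes and 47 to 291 connective tissue cells, and no detection limit was measured.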
